A study of Mus musculus with 12 samples.

Results

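The genes described here are the matrix metalloproteases (MMP), the cell-surface proteases of the ADAM family, the secreted ADAMTS proteases and the tissue inhibitors of metalloproteases (TIMP) of B16 cells, a mouse melanoma line. They were taken by name: every entry of the count table whose Ensembl identifier carries a symbol of the form Mmp, Adam or Adamts plus a number and an optional letter, or Timp1 to Timp4. The rule gave 79 of the 56093 entries. It works on names alone, but it was chosen with earlier results of these data known. Of these, 52 had at least 1 count, and 33 held enough counts to be tested (12 ADAM, 10 ADAMTS, 7 MMP and 4 TIMP genes) among 14089 genes tested in all. RNA was sequenced from 4 groups of 3 libraries, all B16 cells with a short hairpin RNA and grown under the same conditions. They were cells with a hairpin against Sdc1 given IFNγ at 10 ng/ml for 24 h (shSdc1 with IFNγ), cells with a hairpin against RFP, the control, given the same IFNγ (shRFP with IFNγ), and both kinds of cell without IFNγ (shSdc1 and shRFP). The number of hairpins and of clones behind each group is not given in the sources used here. Whether separate cultures lie behind the libraries of 1 group is not stated, so a p-value here sets a difference against the spread of these samples only, and that spread may be technical.

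Sdc1 encodes syndecan-1, a proteoglycan of the cell surface with heparan sulfate chains. Its outer part can be cut from the membrane near the cell surface, a step called shedding, by membrane-bound and secreted metalloproteases, among them ADAM10, ADAM17, MMP2, MMP7, MMP9 and MMP14. TIMPs bind the active sites of these enzymes and block them, with TIMP3 the family member known as an inhibitor of ADAM17, and the remaining stub is cut within the membrane by gamma-secretase. MMPs and ADAMTS proteases also cut the matrix itself: collagens, and proteoglycans such as versican and aggrecan. The proteases are made as inactive precursors and held in check at the protein level, so a transcript level is not an activity, and shedding was not measured here.

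The libraries held 14337771 to 21548940 counts. Sdc1 was lower in every shSdc1 library than in any shRFP library, at 27.0, 25.1 and 25.4 CPM in shSdc1 with IFNγ and 83.3, 79.6 and 103 CPM in shRFP with IFNγ, where CPM is the count scaled to a common library size after TMM normalization. The melanocyte lineage genes Mitf, Dct, Tyr, Tyrp1, Pmel, Mlana and Sox10 were all measured, and 7 of 7 fell in shSdc1 without IFNγ and 6 of 7 with it. Among all genes tested 14.6% fell and 14.0% rose in shSdc1 without IFNγ, and 17.4% fell and 18.9% rose with it. Of 7 leukocyte markers only Cd68 and Lyz2 were measured, and both rose in shSdc1 in both states; the summed leukocyte level was 15.8 to 16.5 CPM in shSdc1 with IFNγ, 5.73 to 8.38 CPM in shRFP with IFNγ, 8.51 to 8.80 CPM in shSdc1 and 2.49 to 3.38 CPM in shRFP. Adgre1 and Cd3e had 0 counts in every library, and Ptprc, Itgam and Csf1r had 1 count each over all 12. Of 7 fibroblast markers Pdgfra, Pdgfrb, Col1a1 and Col1a2 were measured, with summed levels of 23.2 to 26.3 CPM in shSdc1 with IFNγ, 31.4 to 35.7 CPM in shRFP with IFNγ, 28.8 to 30.0 CPM in shSdc1 and 56.4 to 59.8 CPM in shRFP, and Dcn had 0 counts throughout. Of these 4 genes 0 rose and 1, Col1a2, fell without IFNγ, and with IFNγ Col1a1 rose and Col1a2 fell. Col1a2 alone averaged 8.05 ± 0.677 in shSdc1 with IFNγ, 19.2 ± 1.13 in shRFP with IFNγ, 12.5 ± 0.707 in shSdc1 and 40.4 ± 2.05 CPM in shRFP (SD, n = 3 each). None of the 4 endothelial and 4 epithelial markers was measured; the summed endothelial level was 0 to 0.547 CPM and the summed epithelial level at most 1.13 CPM over the 12 libraries. The part of other cells in the results was not tested, and in such bulk libraries a smaller share of cells that express a gene and less RNA per cell cannot be told apart. One library stood apart: shSdc1 replicate 3 gave 4.79% of its counts to ENSMUSG00000119584, a share of 0.0842 to 0.195% elsewhere.

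Of the ADAMTS genes, 7 of 10 measured rose after Sdc1 knockdown in resting cells and 8 of 10 in cells given IFNγ, with none lower, and 4 of 7 and 5 of 7 MMP genes did likewise. The 4 include Mmp19, which was tested without IFNγ only because of its counts in the groups with IFNγ. Of 12 ADAM genes 2 rose and 1 fell without IFNγ, and 5 rose and 1 fell with it. Of the 4 TIMPs 2 rose and 1 fell without IFNγ, and 2 rose with it. Among all 14089 genes 14.0% rose and 14.6% fell without IFNγ, and 18.9% rose and 17.4% fell with it. In either direction 28.6% passed without IFNγ and 36.3% with it. On the scale of CPM per kilobase of exon, which allows levels of different genes to be compared, 7 members stood above a mean of 10 over all 12 libraries. They were Adamts1, Adam9, Timp2, Mmp14, Adam10, Adamts4 and Adam17. A further 10 lay between 1 and 10, and 16 below 1. Mmp14 supplied 83.7 to 91.4% of the summed length-scaled level of the measured MMPs in the 4 groups, Timp2 87.4 to 91.7% of that of the TIMPs, Adam9 56.1 to 64.1% of that of the ADAMs and Adamts1 67.8 to 84.7% of that of the ADAMTS genes. The summed length-scaled level of the ADAMTS genes was 214 ± 11.8 in shSdc1 with IFNγ, 98.4 ± 10.5 in shRFP with IFNγ, 193 ± 1.08 in shSdc1 and 99.8 ± 1.69 in shRFP (SD, n = 3). That of the MMPs was 50.3 ± 0.374, 44.9 ± 2.29, 59.7 ± 1.01 and 48.3 ± 1.53 in the same order of groups, and that of the TIMPs was 77.6 ± 1.86, 66.2 ± 1.60, 95.1 ± 1.57 and 66.2 ± 1.05.

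**Figure D1:**
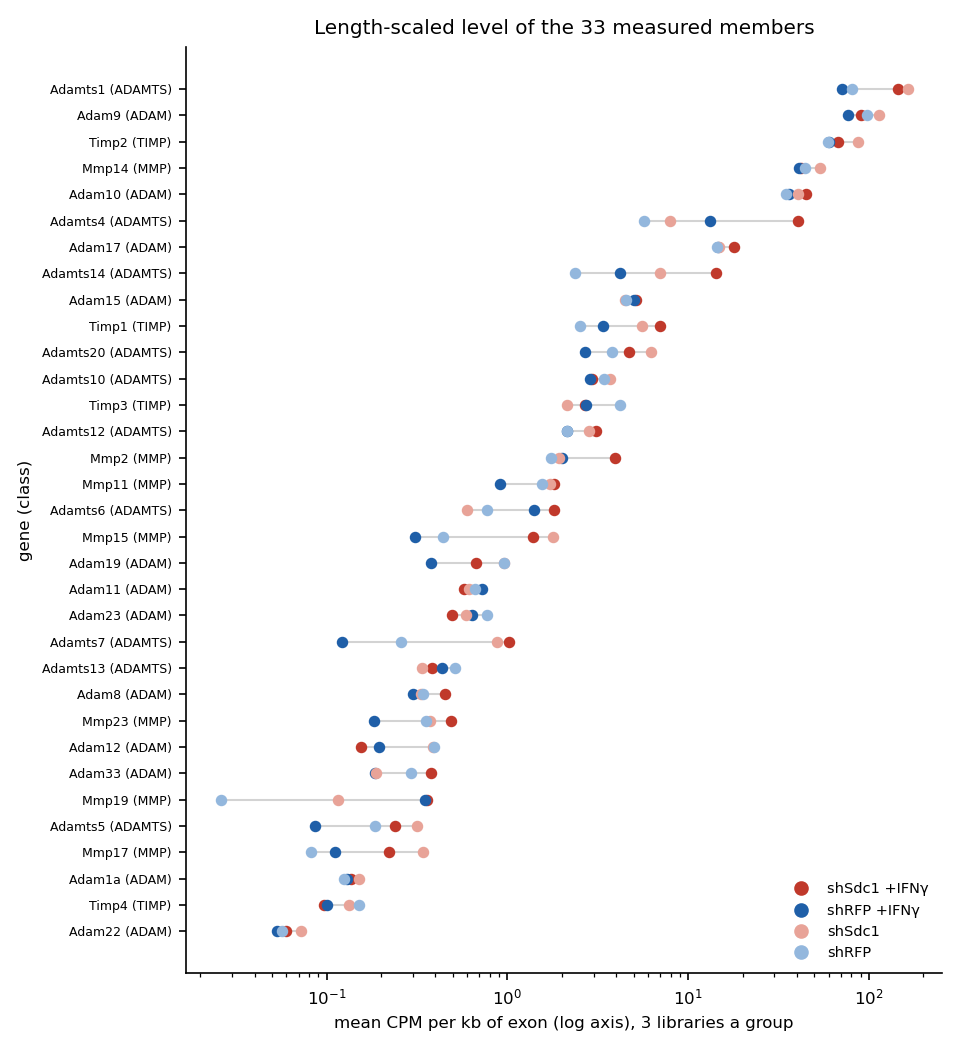
Mean CPM per kilobase of exon (log axis) of the 33 measured members, ordered by their mean over all 12 libraries; each point is the mean of the 3 libraries of a group. Adamts1, Adam9, Timp2 and Mmp14 lead, and the points of Adamts4 spread from 40.4 in shSdc1 with IFNγ to 5.71 in shRFP.

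Each comparison was tested with edgeR's quasi-likelihood test, with p-values adjusted over all 14089 genes by the Benjamini-Hochberg method and a threshold of 0.05, and each log2 fold change carries its standard error after ±. After the knockdown without IFNγ, 15 of the 33 measured members rose and 2 fell, against 14.0% of all genes higher and 14.6% lower. A fit of the compared groups alone, which left Mmp19 untested, gave 14 higher and 2 lower. With IFNγ, 20 rose and 1 fell, against 18.9% of all genes higher and 17.4% lower. The median log2 fold change of the 33 was 0.22 without IFNγ and 0.37 with it, beside 0 and 0.017 over all genes. Given IFNγ, shSdc1 cells had 9 members higher and 8 lower (17.5% and 13.0% of all genes), with 30.5% called in either direction and a member median of 0.059. Given IFNγ, shRFP cells had 4 higher and 10 lower (17.2% and 14.4% of all genes), with 31.6% called in either direction and a member median of -0.18. With upper-quartile scaling the split was 7 higher and 10 lower in shSdc1 cells, where all genes split 2047 to 2495 against 2469 to 1826. In shRFP cells it was 4 and 13, where all genes split 1759 to 2811 against 2422 to 2024. The effect of the knockdown differed between the states for 8 members, 6 upward and 2 downward, against 9.73% of all genes (4.58% upward and 5.15% downward). That count ran from 5 to 9 when 1 library was left out, and was 5 without shSdc1 with IFNγ replicate 2, without shSdc1 replicate 1 and without shRFP replicate 1. The knockdown comparisons, which use different libraries, shared 13 members that rose: Adam9, Adam10, Adamts1, Adamts4, Adamts5, Adamts7, Adamts12, Adamts14, Adamts20, Mmp15, Mmp17, Timp1 and Timp2. They are 13 of the 15 that rose without IFNγ and 13 of the 20 that rose with it, or 86.7% and 65.0%. Among all genes 1184 rose in both states, 60.1% of the 1969 that rose without IFNγ and 44.4% of the 2668 that rose with it. Adam23 fell in both, as did 1199 of all genes. Of the 33, 6 (Adam1a, Adam8, Adam11, Adam22, Adamts13 and Timp4) passed in none of the 5 comparisons, which is 18.2%, and of all genes 37.4% passed in none.

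**Figure D2:**
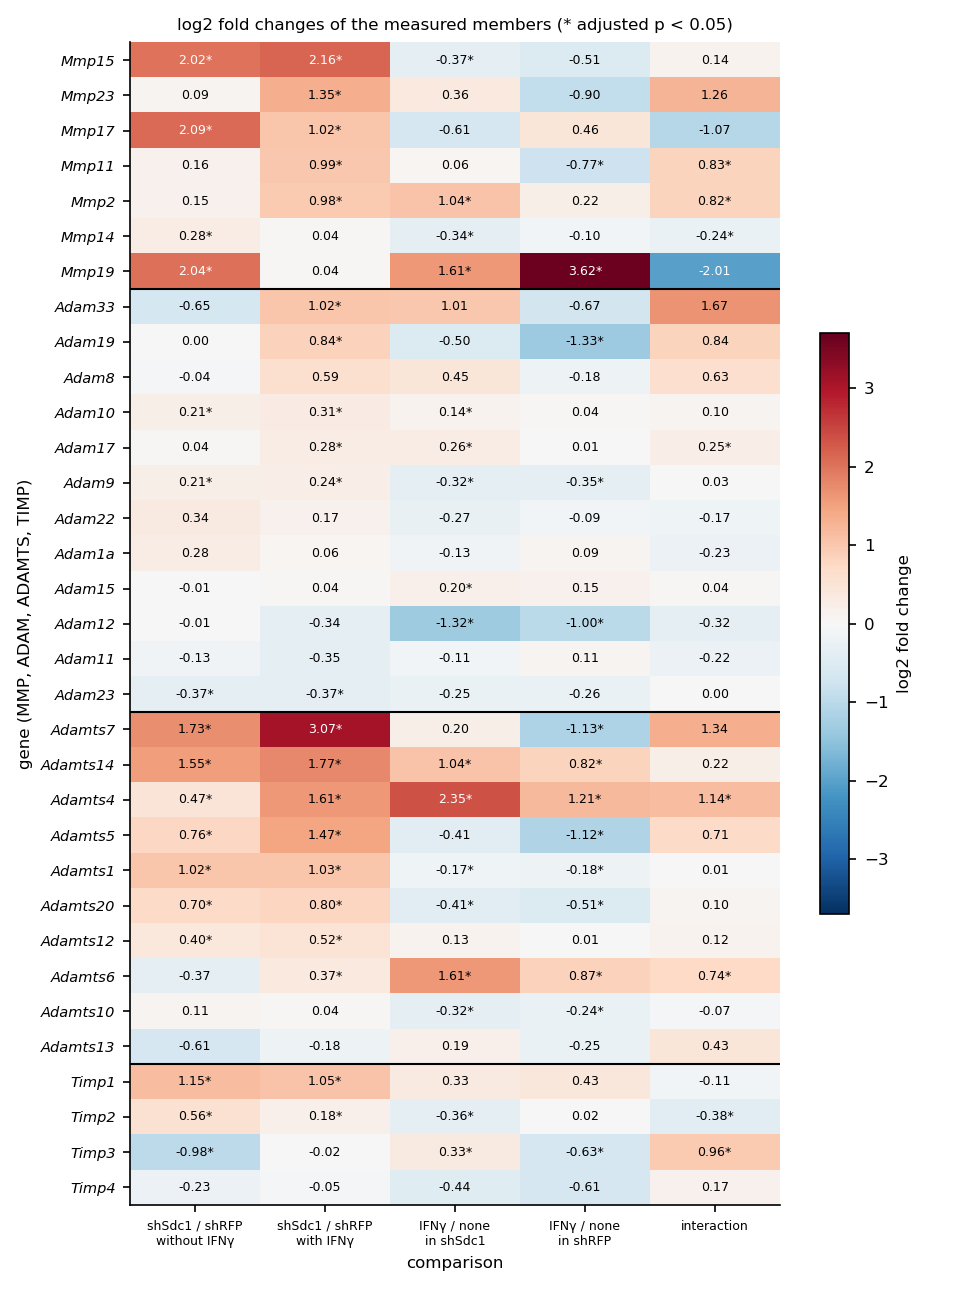
log2 fold changes of the 33 measured members (rows, by class) in the 5 comparisons (columns); red is higher and blue lower in the group named first, and an asterisk marks an edgeR adjusted p under 0.05. The first 2 columns are mostly red, 15 and 20 calls higher against 2 and 1 lower, and the IFNγ columns are mixed.

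Among the MMPs anchored in the membrane, Mmp15 and Mmp17 rose in knockdown cells in both states, and Mmp14, the most abundant, rose by 1.21-fold without IFNγ. Mmp14 encodes MT1-MMP, a collagenase that activates pro-MMP2 and a known sheddase of syndecan-1. It stood at 252, 249 and 252 CPM in shSdc1 with IFNγ and 242, 259.8 and 231 CPM in shRFP with IFNγ. In the absence of IFNγ it had 326, 315 and 313 CPM in shSdc1 and 255, 262 and 271 CPM in shRFP. The shSdc1 libraries without IFNγ were the 3 highest of all 12, and shRFP with IFNγ overlapped both of the other groups. The log2 fold change of the knockdown was 0.28 ± 0.043 (edgeR adjusted p = 7.96e-05) without IFNγ and 0.038 ± 0.044 (edgeR adjusted p = 0.54) with it, with an interval of -0.063 to 0.14 for the second (95%, 8 residual degrees of freedom), and the difference between them was -0.24 ± 0.062 (edgeR adjusted p = 0.0211). That difference did not pass without replicate 2 of shSdc1 with IFNγ, replicate 1 of shSdc1 or replicate 1 of shRFP (-0.23 to -0.22, adjusted p = 0.0574 to 0.0662). IFNγ lowered Mmp14 in shSdc1 cells, at a log2 fold change of -0.34 ± 0.044 (edgeR adjusted p = 5.98e-06), and gave -0.10 ± 0.044 (edgeR adjusted p = 0.0773) in shRFP cells, a change that passed with upper-quartile scaling and without replicate 2 of shRFP with IFNγ (-0.16 to -0.15, adjusted p = 0.0103 to 0.0125).

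Mmp15 encodes MT2-MMP, a transmembrane relative of MT1-MMP. Its levels were 7.57, 7.32 and 7.66 CPM in shSdc1 with IFNγ and 1.32, 1.87 and 1.83 CPM in shRFP with IFNγ. Cells without IFNγ had 8.87, 9.20 and 11 CPM in shSdc1 and 2.46, 2.25 and 2.42 CPM in shRFP. Every shSdc1 library lay well above every shRFP library, and the knockdown effect was 2.02 ± 0.15 (edgeR adjusted p = 5.91e-09) without IFNγ and 2.16 ± 0.17 (edgeR adjusted p = 8.73e-09) with it, a 4.06-fold and a 4.47-fold difference. IFNγ gave -0.37 ± 0.13 (edgeR adjusted p = 0.0382) in shSdc1 cells, a call that ended with the DESeq2 test, with no filter on low counts, with the replicate number as a block and without replicates 1, 2 or 3 of shSdc1 with IFNγ or replicates 2 or 3 of shSdc1 (-0.40 to -0.27, adjusted p = 0.0519 to 0.183). In shRFP cells it gave -0.51 ± 0.19 (edgeR adjusted p = 0.0557), which passed with upper-quartile scaling (-0.56, adjusted p = 0.0342). Mmp17 encodes a protease held at the membrane by a lipid anchor. It was scarce, at 1.83, 1.65 and 0.933 CPM in shSdc1 with IFNγ and 0.926, 0.436 and 0.845 CPM in shRFP with IFNγ. The values without IFNγ were 2.31, 2.44 and 2.08 CPM in shSdc1 and 0.456, 0.415 and 0.760 CPM in shRFP. The ranges of shSdc1 and shRFP were apart without IFNγ. With IFNγ they all but met, at 0.933 CPM in shSdc1 and 0.926 CPM in shRFP, from 14 counts in each library. The effects were 2.09 ± 0.34 (edgeR adjusted p = 0.000106) without IFNγ and 1.02 ± 0.35 (edgeR adjusted p = 0.0274) with it. The second call ended with the DESeq2 test and without replicates 1 or 2 of shSdc1 with IFNγ or replicate 2 of shRFP with IFNγ (0.73 to 1.01, adjusted p = 0.0729 to 0.147). Mmp23 encodes a small protease with an amino-terminal membrane anchor. It was measured at 0.805, 1.42 and 1.20 CPM in shSdc1 with IFNγ and 0.529, 0.623 and 0.141 CPM in shRFP with IFNγ. In unstimulated cells its levels were 0.607, 0.375 and 1.65 CPM in shSdc1 and 0.866, 0.653 and 0.967 CPM in shRFP. It rose in shSdc1 with IFNγ, by 1.35 ± 0.52 (edgeR adjusted p = 0.0482), from 57 counts against 20, and the call ended with the DESeq2 test, with the replicate number as a block and without replicates 2 or 3 of shSdc1 with IFNγ or replicates 1 or 3 of shRFP with IFNγ (0.96 to 1.5, adjusted p = 0.0608 to 0.169). Mmp16 had 47 counts over the 12 libraries, Mmp24 had 6 and Mmp25 had 0, and none of these was tested.

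Of 16 secreted MMP genes only Mmp2, Mmp11 and Mmp19 were measured, 5 more had counts too few to test, and 8 had 0 counts. Among all 56093 entries 27472 had at least 1 count and 14089 were tested. Of the 16, 10 (Mmp1a, Mmp1b, Mmp3, Mmp7, Mmp8, Mmp10, Mmp12, Mmp13, Mmp20 and Mmp27) follow one another as a single run of protein-coding genes on chromosome 9 in RefSeq (GRCm38.p6), and Mmp7 among them is a described sheddase of syndecan-1. None of the 10 was measured, and the highest total among them was 5 counts over all 12 libraries, in Mmp27. Mmp7 had 0 counts in each group, and a count of 0 over a group allows an expected count of up to about 3 at 95% confidence, for counting error only. Several genes of this run are known for an AP-1 site in the promoter, so their RefSeq promoter windows (250 bases before to 50 after the start) were searched for the letters TGANTCA, which read the same on either strand. Of the 10 genes, with 12 windows, 8 held 1 match each, 35 to 95 bases before the start. Among all genes 2425 of 27025 held a match, in 7.81% of all 32851 windows. Stretches of 40 bases round the match are shown for 4 of them because the letters recur within this silent run; the capitals mark the match.
Mmp3 (chr9:7445760-7445799, plus strand): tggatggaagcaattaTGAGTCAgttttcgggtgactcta
Mmp7 (chr9:7692011-7692050, plus strand): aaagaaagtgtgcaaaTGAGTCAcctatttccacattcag
Mmp10 (chr9:7502263-7502302, plus strand): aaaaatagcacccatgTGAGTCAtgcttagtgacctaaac
Mmp13 (chr9:7272463-7272502, plus strand): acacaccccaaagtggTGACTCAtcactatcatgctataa
Among the 21 measured members with a window (24 windows), the same letters were found in 1 window, of Adam19, which is 4.17% of the windows beside 7.81% of all windows. The windows (RefSeq, GRCm38.p6) of Adamts14 and Timp1, which rose with the knockdown in both states, are shown whole and do not hold these letters, so they carry no capitals.
Adamts14 (chr10:61273370-61273669, minus strand): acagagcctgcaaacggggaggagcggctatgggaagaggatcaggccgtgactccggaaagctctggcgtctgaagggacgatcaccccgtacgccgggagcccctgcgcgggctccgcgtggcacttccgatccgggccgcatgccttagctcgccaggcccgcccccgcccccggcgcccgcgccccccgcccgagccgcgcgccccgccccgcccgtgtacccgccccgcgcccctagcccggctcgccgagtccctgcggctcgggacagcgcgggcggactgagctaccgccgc
Timp1 (chrX:20869916-20870215, plus strand): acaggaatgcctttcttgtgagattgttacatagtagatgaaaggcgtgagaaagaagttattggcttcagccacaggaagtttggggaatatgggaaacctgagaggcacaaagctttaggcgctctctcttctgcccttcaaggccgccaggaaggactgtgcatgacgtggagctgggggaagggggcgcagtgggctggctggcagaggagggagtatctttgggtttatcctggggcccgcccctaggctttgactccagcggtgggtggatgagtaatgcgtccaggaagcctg
The search took this pattern only. Forms that differ by 1 letter, such as tgagtaa near the end of the Timp1 window, were not counted. A match or its absence in these windows describes letters, not binding.

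Mmp2 encodes gelatinase A, which cuts denatured collagen and is activated at the cell surface by MT1-MMP with TIMP2. It was raised in a single group, with 14.5, 14.2 and 11.3 CPM in shSdc1 with IFNγ and 7.34, 6.17 and 6.83 CPM in shRFP with IFNγ. Unstimulated cells had 6.74, 6.88 and 5.80 CPM in shSdc1 and 5.20, 6.17 and 6.22 CPM in shRFP. The libraries of shSdc1 with IFNγ were the 3 highest, and the other 3 groups overlapped. The knockdown effect was 0.98 ± 0.13 (edgeR adjusted p = 9.33e-06) with IFNγ and 0.15 ± 0.14 (edgeR adjusted p = 0.465) without it, and the difference was 0.82 ± 0.19 (edgeR adjusted p = 0.0117). IFNγ raised Mmp2 in shSdc1 cells by 1.04 ± 0.13 (edgeR adjusted p = 4.49e-06) and gave 0.22 ± 0.14 (edgeR adjusted p = 0.26) in shRFP cells. Mmp11 encodes stromelysin-3, which is activated inside the cell by furin. It stood at 4.62, 5.26 and 5.20 CPM in shSdc1 with IFNγ and 2.32, 2.37 and 2.89 CPM in shRFP with IFNγ. Without IFNγ it had 4.68, 4.75 and 5.01 CPM in shSdc1 and 4.51, 4.09 and 4.28 CPM in shRFP. The libraries of shRFP with IFNγ were the lowest, with no overlap with the other 3 groups. The knockdown effect was 0.99 ± 0.16 (edgeR adjusted p = 6.43e-05) with IFNγ and 0.16 ± 0.14 (edgeR adjusted p = 0.449) without it, and the difference of 0.83 ± 0.21 (edgeR adjusted p = 0.0196) did not pass with the DESeq2 test and without replicate 2 of shSdc1 with IFNγ, replicate 2 of shRFP with IFNγ, replicate 1 of shSdc1 or replicate 1 of shRFP (0.78 to 0.82, adjusted p = 0.0501 to 0.0625). IFNγ lowered Mmp11 in shRFP cells, at a log2 fold change of -0.77 ± 0.16 (edgeR adjusted p = 0.00106), and gave 0.059 ± 0.14 (edgeR adjusted p = 0.798) in shSdc1 cells. Of its exon bases 5.6% lie opposite Chchd10, which had 696 counts and did not pass in any comparison.

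Mmp19 encodes a basement-membrane protease. Its levels were low, 1.40, 1.06 and 1.33 CPM in shSdc1 with IFNγ and 1.52, 1.12 and 1.06 CPM in shRFP with IFNγ. In the absence of IFNγ it had 0.425, 0.438 and 0.367 CPM in shSdc1 and 0.137, 0 and 0.138 CPM in shRFP, that is 20 counts over shSdc1 and 5 over shRFP. All libraries with IFNγ lay above all without it. IFNγ raised it in both kinds of cell, by 1.61 ± 0.38 (edgeR adjusted p = 0.00297) in shSdc1 and 3.62 ± 0.50 (edgeR adjusted p = 1.86e-05) in shRFP. The count ratio was 13.2 (95% exact interval 5.31 to 42.1) in shRFP and 3.09 (1.85 to 5.39) in shSdc1, and these intervals cover counting error only. Without IFNγ the knockdown effect was 2.04 ± 0.61 (edgeR adjusted p = 0.017), a call that ended without replicate 2 of shRFP (1.53, adjusted p = 0.0672), and with IFNγ it was 0.035 ± 0.31 (edgeR adjusted p = 0.944). No library without IFNγ held more than 7 counts of Mmp19, below the filter's minimum count of 10. It was tested there only because of its counts with IFNγ, and a fit of the compared groups alone gave no value. On the opposite strand Tmem198b covers 22.3% of its exon bases and had 1590 counts against 145, so reads of this pair may not be separable where the strand was not used in counting. Tmem198b also rose with IFNγ, by 0.53 in shRFP and 0.78 in shSdc1 on the log2 scale. Mmp9, gelatinase B and a described sheddase of syndecan-1, was not tested. Its counts were 1, 7 and 8 in shSdc1 with IFNγ, 0, 0 and 1 in shRFP with IFNγ, 8, 5 and 2 in shSdc1 and 0, 2 and 0 in shRFP. The knockdown ratio over these counts was 14.4 (95% exact interval 2.23 to 602) with IFNγ and 8.18 (1.90 to 73.8) without it. The intervals are wide and cover counting error only.

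Of 8 measured ADAMs with a sheddase or protease role, 2 rose without IFNγ and 5 with it, beside 14.0% and 18.9% of all genes. Adam10 encodes the sheddase that cuts Notch receptors and cadherins, and has been described as a constitutive sheddase of syndecans. Its levels were 215, 227 and 219.6 CPM in shSdc1 with IFNγ and 173, 175 and 184 CPM in shRFP with IFNγ. Cells without IFNγ had 194, 203 and 202 CPM in shSdc1 and 179, 171 and 166 CPM in shRFP. The shSdc1 libraries lay above the shRFP libraries in each state without overlap, by 0.31 ± 0.043 (edgeR adjusted p = 1.33e-05) with IFNγ and 0.21 ± 0.043 (edgeR adjusted p = 0.000853) without it, which is 1.24-fold and 1.16-fold. IFNγ gave 0.14 ± 0.043 (edgeR adjusted p = 0.0166) in shSdc1 cells, a call that ended with upper-quartile scaling and without replicate 2 of shSdc1 with IFNγ or replicate 1 of shSdc1 (0.10 to 0.12, adjusted p = 0.0823 to 0.0875), and 0.044 ± 0.043 (edgeR adjusted p = 0.472) in shRFP cells. Adam17 encodes TACE, the sheddase of TNF and of ligands of the EGF receptor, which also releases syndecan-1 and syndecan-4. It stood at 127, 130.4 and 126 CPM in shSdc1 with IFNγ and 101, 103 and 111 CPM in shRFP with IFNγ. The values without IFNγ were 107, 108 and 104 CPM in shSdc1 and 98.6, 108 and 105 CPM in shRFP. The libraries of shSdc1 with IFNγ were the 3 highest, and the other 3 groups overlapped. With IFNγ the knockdown effect was 0.28 ± 0.048 (edgeR adjusted p = 0.000134), a 1.22-fold difference, and without IFNγ it was 0.035 ± 0.048 (edgeR adjusted p = 0.64) with a 95% interval of -0.075 to 0.15. The difference between these, 0.25 ± 0.068 (edgeR adjusted p = 0.0277), did not pass with no filter on low counts and without replicates 1 or 2 of shSdc1 with IFNγ, replicates 1 or 2 of shRFP with IFNγ, replicates 1 or 3 of shSdc1 or replicate 2 of shRFP (0.21 to 0.25, adjusted p = 0.051 to 0.0909). IFNγ raised Adam17 in shSdc1 cells by 0.26 ± 0.048 (edgeR adjusted p = 0.000348) and gave 0.013 ± 0.048 (edgeR adjusted p = 0.864) in shRFP cells. Iah1 lies opposite 4.3% of its exon bases and had 3980 counts against 21908; the difference of the knockdown effects in Iah1 was 0.56 ± 0.12 (edgeR adjusted p = 0.00678), in the same direction as in Adam17.

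Adam9, which encodes a sheddase of several growth factors and was the most abundant ADAM, averaged 372 ± 5.26 CPM in shSdc1 with IFNγ, 315 ± 20.3 in shRFP with IFNγ, 465 ± 5.67 in shSdc1 and 401 ± 10.6 in shRFP (SD, n = 3). It rose with the knockdown, at a log2 fold change of 0.21 ± 0.042 (edgeR adjusted p = 0.000711) without IFNγ and 0.24 ± 0.042 (edgeR adjusted p = 0.000197) with it, and fell with IFNγ, at a log2 fold change of -0.32 ± 0.042 (edgeR adjusted p = 8.67e-06) in shSdc1 and -0.35 ± 0.042 (edgeR adjusted p = 3.74e-06) in shRFP cells. Adam19, whose product cuts neuregulin, had 6.5, 3.84 and 4.0 CPM in shSdc1 with IFNγ and 2.45, 2.62 and 3.03 CPM in shRFP with IFNγ. In unstimulated cells its levels were 7.29, 7.51 and 5.62 CPM in shSdc1 and 6.11, 7.0 and 7.39 CPM in shRFP. IFNγ lowered it in shRFP cells, at a log2 fold change of -1.33 ± 0.20 (edgeR adjusted p = 6e-05), and the ranges of the shRFP groups did not overlap. In shSdc1 cells the change was -0.50 ± 0.19 (edgeR adjusted p = 0.0504), and it passed with DESeq2 size factors, with upper-quartile scaling, with no filter on low counts, in a fit of the compared groups alone and without replicate 1 of shSdc1 with IFNγ or replicate 3 of shSdc1 (-0.80 to -0.50, adjusted p = 0.00276 to 0.0499). With IFNγ it was higher in shSdc1, by 0.84 ± 0.21 (edgeR adjusted p = 0.00466), and without IFNγ the effect was 0.0019 ± 0.18 (edgeR adjusted p = 0.997). The difference of the effects, 0.84 ± 0.28 (edgeR adjusted p = 0.0636), passed with no filter on low counts and without replicate 2 of shSdc1 with IFNγ (0.82 to 0.97, adjusted p = 0.018 to 0.0481).

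Adam12, an ADAM of muscle and tumour cells with sheddase activity, had 1.77, 1.65 and 1.47 CPM in shSdc1 with IFNγ and 1.72, 2.49 and 1.97 CPM in shRFP with IFNγ. Unstimulated cells had 4.07, 3.57 and 4.64 CPM in shSdc1 and 3.74, 3.62 and 5.18 CPM in shRFP. The libraries with IFNγ lay below those without, at a log2 fold change of -1.32 ± 0.21 (edgeR adjusted p = 9.68e-05) in shSdc1 and -1.0 ± 0.21 (edgeR adjusted p = 0.00116) in shRFP cells, and the knockdown effects did not pass. Adam33 was near the limit of the test, at 1.77, 2.01 and 2.33 CPM in shSdc1 with IFNγ and 1.65, 0.623 and 0.704 CPM in shRFP with IFNγ. Without IFNγ it had 0.790, 1.75 and 0.489 CPM in shSdc1 and 1.55, 1.60 and 1.59 CPM in shRFP. Its effect of the knockdown was 1.02 ± 0.38 (edgeR adjusted p = 0.0435) with IFNγ and -0.65 ± 0.39 (edgeR adjusted p = 0.238) without it. The first call ended with the DESeq2 test, with the replicate number as a block and without replicates 1, 2 or 3 of shSdc1 with IFNγ or replicates 2 or 3 of shRFP with IFNγ (0.76 to 1.11, adjusted p = 0.0563 to 0.177), and the second passed without replicate 2 of shSdc1 (-1.29, adjusted p = 0.0282). Its IFNγ effect was 1.01 ± 0.38 (edgeR adjusted p = 0.0505) in shSdc1, which passed with no filter on low counts, with a filter of 1 CPM in 3 libraries, in a fit of the compared groups alone and without replicate 2 of shSdc1 (1.0 to 1.65, adjusted p = 0.00503 to 0.0467). In shRFP it was -0.67 ± 0.39 (edgeR adjusted p = 0.214), which passed without replicate 1 of shRFP with IFNγ (-1.24, adjusted p = 0.0395). The difference of 1.67 ± 0.54 (edgeR adjusted p = 0.0588) passed with no filter on low counts and without replicate 1 of shRFP with IFNγ or replicate 2 of shSdc1 (1.65 to 2.31, adjusted p = 0.00675 to 0.0172). Adam15 rose with IFNγ in shSdc1 cells by 0.20 ± 0.071 (edgeR adjusted p = 0.0405), a call that ended with upper-quartile scaling, with the DESeq2 test, with no filter on low counts, in a fit of the compared groups alone, with the replicate number as a block and without replicate 2 of shSdc1 with IFNγ or replicates 2 or 3 of shSdc1 (0.12 to 0.20, adjusted p = 0.0507 to 0.247). Adam15 lay between 25.8 and 34.7 CPM over the 12 libraries. Adam8, a protease known from leukocytes and tumours, averaged 2.10 ± 0.293 CPM in shSdc1 with IFNγ and 1.58 ± 0.324 CPM in shRFP and passed in no comparison. Of the ADAMs known from the brain as adhesion proteins without protease activity, Adam23, between 8.27 and 15.2 CPM over the 12 libraries, fell with the knockdown, at a log2 fold change of -0.37 ± 0.10 (edgeR adjusted p = 0.0119) without IFNγ and -0.37 ± 0.11 (edgeR adjusted p = 0.013) with it. The first call ended without replicate 1 of shSdc1 or replicate 3 of shRFP (-0.30 to -0.29, adjusted p = 0.0602 to 0.0685) and the second without replicate 1 of shSdc1 with IFNγ (-0.32, adjusted p = 0.0567). Its IFNγ effect was -0.25 ± 0.11 (edgeR adjusted p = 0.0864) in shSdc1, which passed with upper-quartile scaling and without replicate 1 of shSdc1 (-0.33 to -0.30, adjusted p = 0.0443 to 0.0479), and -0.26 ± 0.10 (edgeR adjusted p = 0.0671) in shRFP, which passed with upper-quartile scaling (-0.31, adjusted p = 0.0285). Adam11 and Adam22, of the same kind, passed in none and lay between 2.35 and 4.6 CPM and between 0.345 and 1.36 CPM. Of the other 21 ADAM genes, many of which are known from testis and sperm, 14 had 0 counts, and only Adam1a, at 1.03 ± 0.0416 CPM in shSdc1 with IFNγ, was measured; 63.7% of its exon bases are shared with Gm42878 on the same strand, so its counts are uncertain.

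**Figure D3:**
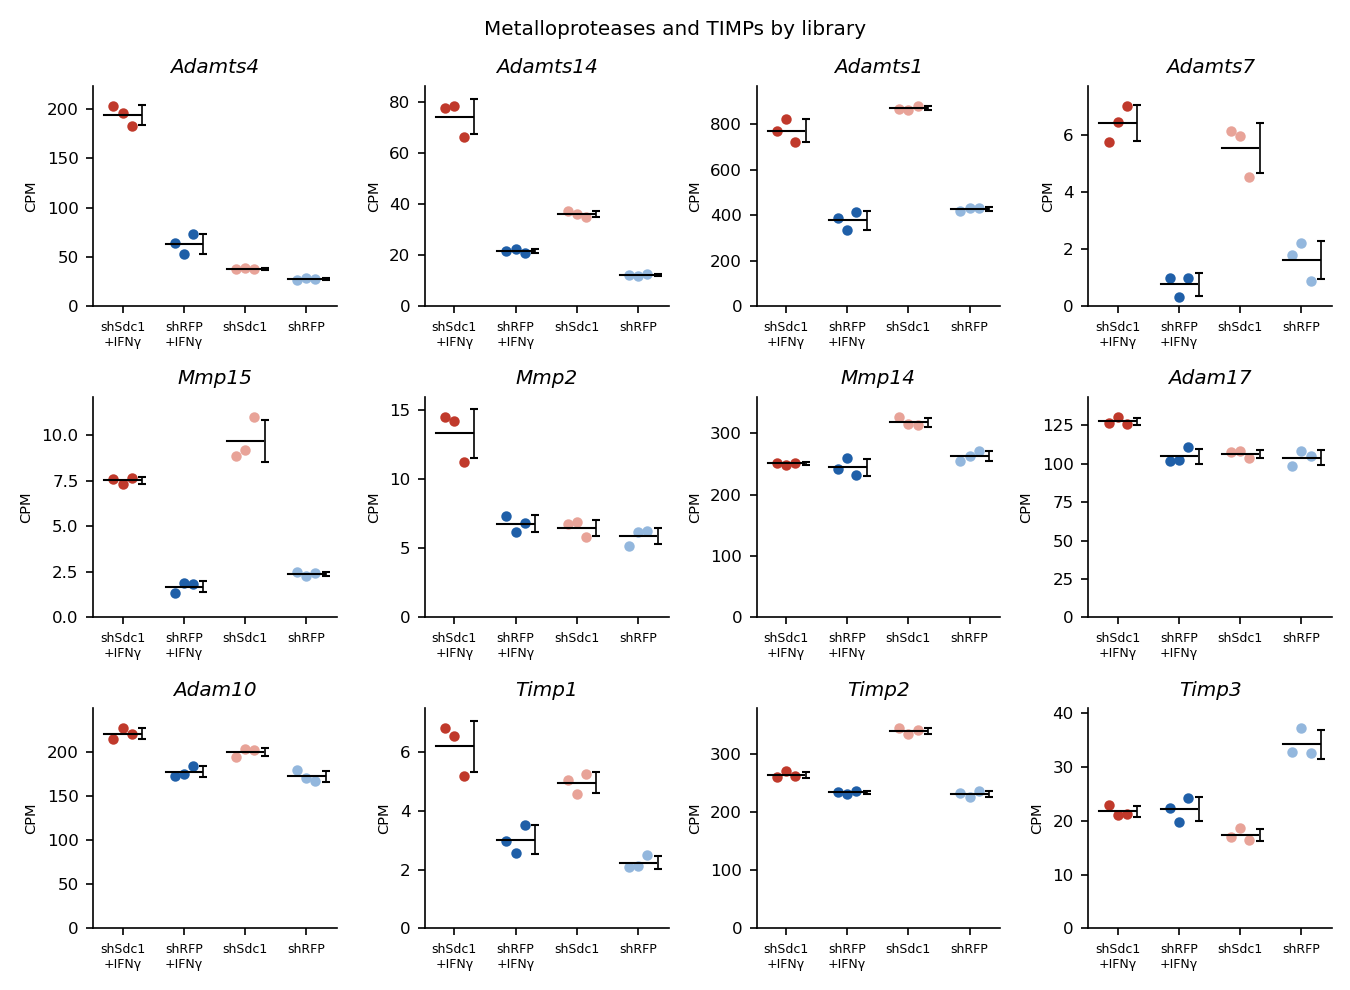
CPM of 12 members in each library (points), with the group mean (line) and SD (bar, n = 3), for the 4 groups along the x axis. The libraries of shSdc1 with IFNγ stand apart in Adamts4, Adamts14, Mmp2 and Adam17, and the shRFP libraries without IFNγ stand apart in Timp3.

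All 4 measured members that cut large proteoglycans, Adamts1, Adamts4, Adamts5 and Adamts20, rose with the knockdown in both states. Among all 14089 genes 14.0% rose without IFNγ and 18.9% with it, and 1184 genes rose in both. Adamts1 encodes a versican-cutting protease, reported in human cells to release the ectodomain of syndecan-4. Of all members it had the highest length-scaled mean over all 12 libraries. In shRFP and in shRFP with IFNγ it lay below Adam9 on average, at 80.6 against 97.4 and 71.2 against 76.5 CPM per kilobase. It stood at 770.2, 819.7 and 721 CPM in shSdc1 with IFNγ and 387, 333 and 414 CPM in shRFP with IFNγ. In the absence of IFNγ it had 865, 861 and 879 CPM in shSdc1 and 419, 432 and 431 CPM in shRFP. The shSdc1 libraries lay above the shRFP libraries in each state, 2.04-fold and 2.03-fold on average, with effects of 1.03 ± 0.059 (edgeR adjusted p = 1.53e-10) with IFNγ and 1.02 ± 0.059 (edgeR adjusted p = 2.04e-10) without it. The difference of 0.0057 ± 0.083 (edgeR adjusted p = 0.979) had a 95% interval of -0.19 to 0.20. IFNγ gave -0.17 ± 0.058 (edgeR adjusted p = 0.0306) in shSdc1 cells and -0.18 ± 0.059 (edgeR adjusted p = 0.0267) in shRFP cells. The first of these calls ended without replicates 1 or 3 of shSdc1 with IFNγ or replicates 1, 2 or 3 of shSdc1 (-0.18 to -0.13, adjusted p = 0.0579 to 0.143), and the second in a fit of the compared groups alone and without replicate 2 of shRFP with IFNγ or replicates 2 or 3 of shRFP (-0.18 to -0.091, adjusted p = 0.0644 to 0.137).

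Adamts4, aggrecanase-1, was raised by IFNγ and by the knockdown, and most where both were present. It had 203, 197 and 183 CPM in shSdc1 with IFNγ and 64.6, 53.0 and 73.3 CPM in shRFP with IFNγ. Cells without IFNγ had 37.4, 38.8 and 37.8 CPM in shSdc1 and 26.8, 28.4 and 27.2 CPM in shRFP. The 4 groups did not overlap, and shSdc1 with IFNγ was the highest. The knockdown effect was 1.61 ± 0.077 (edgeR adjusted p = 1.14e-11) with IFNγ and 0.47 ± 0.087 (edgeR adjusted p = 0.00044) without it, and the difference was 1.14 ± 0.12 (edgeR adjusted p = 1.27e-05). IFNγ raised Adamts4 by 2.35 ± 0.080 (edgeR adjusted p = 1.26e-14) in shSdc1 cells, a 5.11-fold rise, and by 1.21 ± 0.085 (edgeR adjusted p = 1.46e-09) in shRFP cells, a 2.31-fold rise.

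Adamts5, aggrecanase-2, is the neighbour of Adamts1 in RefSeq and was far scarcer. It had 2.47, 2.72 and 2.53 CPM in shSdc1 with IFNγ and 0.926, 0.872 and 0.986 CPM in shRFP with IFNγ. The values without IFNγ were 3.83, 3.44 and 2.99 CPM in shSdc1 and 2.23, 1.78 and 2.00 CPM in shRFP. The shSdc1 ranges lay above the shRFP ranges in each state, by 1.47 ± 0.23 (edgeR adjusted p = 5.62e-05) with IFNγ and 0.76 ± 0.19 (edgeR adjusted p = 0.00506) without it. IFNγ lowered it in shRFP cells, at a log2 fold change of -1.12 ± 0.24 (edgeR adjusted p = 0.00133), and gave -0.41 ± 0.18 (edgeR adjusted p = 0.104) in shSdc1 cells; the difference was 0.71 ± 0.30 (edgeR adjusted p = 0.145). Adamts20, a protease known in mouse from the migration of melanoblasts, had 38.3, 41.3 and 46.9 CPM in shSdc1 with IFNγ and 23.9, 21.2 and 27.4 CPM in shRFP with IFNγ. In unstimulated cells its levels were 58.0, 56.4 and 52.9 CPM in shSdc1 and 33.8, 31.9 and 37.2 CPM in shRFP. It rose with the knockdown by 0.80 ± 0.090 (edgeR adjusted p = 1.11e-06) with IFNγ and 0.70 ± 0.084 (edgeR adjusted p = 3.11e-06) without it. IFNγ lowered it, at a log2 fold change of -0.41 ± 0.083 (edgeR adjusted p = 0.000966) in shSdc1 and -0.51 ± 0.091 (edgeR adjusted p = 0.000311) in shRFP cells, and no group overlapped its partner. Adamts8, Adamts9 and Adamts15 had 9, 50 and 6 counts in all and were not tested.

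Adamts14 encodes a protease that removes the amino-terminal propeptide of fibrillar procollagens. It had 78.0, 78.6 and 66.4 CPM in shSdc1 with IFNγ and 21.9, 22.6 and 21.1 CPM in shRFP with IFNγ. Unstimulated cells had 37.3, 36.2 and 35.0 CPM in shSdc1 and 12.2, 12 and 12.9 CPM in shRFP. The 4 groups did not overlap and stood in the order shSdc1 with IFNγ, shSdc1, shRFP with IFNγ and shRFP, from high to low. The knockdown raised it by 1.77 ± 0.068 (edgeR adjusted p = 8.88e-13) with IFNγ and 1.55 ± 0.075 (edgeR adjusted p = 2.14e-11) without it, and IFNγ by 1.04 ± 0.064 (edgeR adjusted p = 1.86e-10) in shSdc1 and 0.82 ± 0.080 (edgeR adjusted p = 1.69e-07) in shRFP cells. The difference of the knockdown effects was 0.22 ± 0.10 (edgeR adjusted p = 0.191). The other procollagen proteases of this kind, Adamts2 and Adamts3, had 6 and 0 counts. Adamts7 and Adamts12 encode a related pair known for cutting cartilage oligomeric matrix protein. Adamts7 had 5.74, 6.44 and 7.0 CPM in shSdc1 with IFNγ and 0.992, 0.312 and 0.986 CPM in shRFP with IFNγ. Without IFNγ it had 6.14, 5.94 and 4.52 CPM in shSdc1 and 1.78, 2.19 and 0.898 CPM in shRFP. It was higher in every shSdc1 library than in any shRFP library, by 3.07 ± 0.30 (edgeR adjusted p = 2.17e-07) with IFNγ, an 8.41-fold difference, and 1.73 ± 0.26 (edgeR adjusted p = 3.95e-05) without it. The first effect came from 321 counts against 34. IFNγ gave 0.20 ± 0.22 (edgeR adjusted p = 0.517) in shSdc1 cells. In shRFP cells it gave -1.13 ± 0.37 (edgeR adjusted p = 0.0239), a call that ended in a fit of the compared groups alone and without replicate 2 of shRFP with IFNγ or replicates 1 or 2 of shRFP (-1.13 to -0.74, adjusted p = 0.0613 to 0.131). The difference of 1.34 ± 0.43 (edgeR adjusted p = 0.0535) passed with the DESeq2 test, with no filter on low counts and without replicates 1 or 3 of shRFP with IFNγ or replicate 3 of shRFP (1.32 to 1.59, adjusted p = 0.00412 to 0.048). Tbc1d2b lies opposite 1.9% of its exon bases, with 9002 counts against 714, and fell by 0.25 on the log2 scale with the knockdown in each state. Adamts12 had 33.4, 33.8 and 33.6 CPM in shSdc1 with IFNγ and 22.9, 21.9 and 25.7 CPM in shRFP with IFNγ. In the absence of IFNγ it had 31.4, 28.5 and 32.3 CPM in shSdc1 and 22.6, 26.9 and 20.5 CPM in shRFP. It rose by 0.52 ± 0.086 (edgeR adjusted p = 0.000106) with IFNγ and 0.40 ± 0.086 (edgeR adjusted p = 0.0017) without it, with no overlap in either state.

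Adamts6 and Adamts10 encode a related pair linked to fibrillin microfibrils. Adamts6 had 12.6, 15.2 and 14.8 CPM in shSdc1 with IFNγ and 12.8, 9.91 and 10.2 CPM in shRFP with IFNγ. Cells without IFNγ had 5.22, 4.19 and 4.52 CPM in shSdc1 and 6.20, 6.29 and 5.46 CPM in shRFP. IFNγ raised it in both kinds of cell, by 1.61 ± 0.14 (edgeR adjusted p = 2.45e-08) in shSdc1 and 0.87 ± 0.13 (edgeR adjusted p = 6.57e-05) in shRFP. With IFNγ the ranges of shSdc1 and shRFP overlapped, and the knockdown effect of 0.37 ± 0.12 (edgeR adjusted p = 0.0249) did not pass with the DESeq2 test and without replicates 2 or 3 of shSdc1 with IFNγ or replicates 2 or 3 of shRFP with IFNγ (0.29 to 0.36, adjusted p = 0.0596 to 0.117). Without IFNγ the effect was -0.37 ± 0.15 (edgeR adjusted p = 0.0713). The difference of 0.74 ± 0.19 (edgeR adjusted p = 0.0216) did not pass without replicate 2 of shSdc1 with IFNγ, replicate 2 of shSdc1 or replicates 1 or 2 of shRFP (0.67 to 0.71, adjusted p = 0.056 to 0.0611). Adamts10 averaged 24.4 ± 0.646 CPM in shSdc1 with IFNγ, 23.8 ± 2.27 in shRFP with IFNγ, 30.4 ± 1.24 in shSdc1 and 28.2 ± 1.21 in shRFP (SD, n = 3). It fell with IFNγ, at a log2 fold change of -0.32 ± 0.070 (edgeR adjusted p = 0.00184) in shSdc1 and -0.24 ± 0.071 (edgeR adjusted p = 0.0139) in shRFP cells, and the second call ended without replicate 2 of shRFP with IFNγ or replicate 3 of shRFP (-0.21 to -0.17, adjusted p = 0.0553 to 0.093). Adamts13, the protease of von Willebrand factor, lay between 1.15 and 2.73 CPM and gave -0.61 ± 0.25 (edgeR adjusted p = 0.0747) for the knockdown without IFNγ, which passed without replicate 2 of shSdc1 (-0.95, adjusted p = 0.0125).

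Among the inhibitors, Timp1 and Timp2 rose with the knockdown in both states. Timp1, an inhibitor of most secreted MMPs, had 6.82, 6.56 and 5.20 CPM in shSdc1 with IFNγ and 2.98, 2.55 and 3.52 CPM in shRFP with IFNγ. The values without IFNγ were 5.04, 4.57 and 5.25 CPM in shSdc1 and 2.10, 2.14 and 2.49 CPM in shRFP. The shSdc1 libraries lay above the shRFP libraries in each state, by 1.05 ± 0.17 (edgeR adjusted p = 7.11e-05) with IFNγ and 1.15 ± 0.18 (edgeR adjusted p = 5.52e-05) without it. IFNγ gave 0.33 ± 0.15 (edgeR adjusted p = 0.122) in shSdc1 and 0.43 ± 0.19 (edgeR adjusted p = 0.0934) in shRFP cells. Timp2, which inhibits MMPs and also joins MT1-MMP in activating pro-MMP2, was the most abundant of the 4. It had 261, 270.3 and 262 CPM in shSdc1 with IFNγ and 234, 231 and 237 CPM in shRFP with IFNγ. In unstimulated cells its levels were 344, 334 and 341 CPM in shSdc1 and 233, 226 and 235 CPM in shRFP. The shSdc1 libraries without IFNγ were the 3 highest, and the shRFP groups overlapped. The knockdown raised Timp2 by 0.56 ± 0.037 (edgeR adjusted p = 1.25e-09) without IFNγ and 0.18 ± 0.037 (edgeR adjusted p = 0.000906) with it, and the difference was -0.38 ± 0.052 (edgeR adjusted p = 0.000214). IFNγ lowered it in shSdc1 cells, at a log2 fold change of -0.36 ± 0.036 (edgeR adjusted p = 2.9e-07) and gave 0.016 ± 0.037 (edgeR adjusted p = 0.782) in shRFP cells.

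Timp3 encodes the matrix-bound inhibitor of ADAM17 and of several ADAMTS proteases, and it fell in resting knockdown cells, where Timp1 and Timp2 rose. It had 22.9, 21.1 and 21.3 CPM in shSdc1 with IFNγ and 22.4, 19.8 and 24.2 CPM in shRFP with IFNγ. Unstimulated cells had 16.9, 18.7 and 16.4 CPM in shSdc1 and 32.8, 37.3 and 32.6 CPM in shRFP. The shRFP libraries without IFNγ were the 3 highest and the shSdc1 libraries without IFNγ the 3 lowest of all 12, and the groups with IFNγ overlapped between them. The knockdown effect was -0.98 ± 0.082 (edgeR adjusted p = 3.43e-08) without IFNγ, a 1.97-fold lower level, and -0.018 ± 0.084 (edgeR adjusted p = 0.894) with IFNγ, with a 95% interval of -0.21 to 0.18. The difference was 0.96 ± 0.12 (edgeR adjusted p = 7.76e-05). IFNγ raised Timp3 in shSdc1 cells, at a log2 fold change of 0.33 ± 0.086 (edgeR adjusted p = 0.00662) and lowered it in shRFP cells, at a log2 fold change of -0.63 ± 0.081 (edgeR adjusted p = 6.96e-06). On the opposite strand Syn3 covers 21.3% of its exon bases and had 551 counts against 4769. Syn3 fell with the knockdown by 0.82 without IFNγ and by 0.85 with it on the log2 scale, and its IFNγ effects did not pass. Timp4 was barely detected, at 0.429, 0.945 and 0.333 CPM in shSdc1 with IFNγ and 0.529, 0.623 and 0.634 CPM in shRFP with IFNγ. Without IFNγ it had 0.911, 1.13 and 0.305 CPM in shSdc1 and 0.912, 1.36 and 0.415 CPM in shRFP, and its groups overlapped in every comparison.

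**Figure D4:**
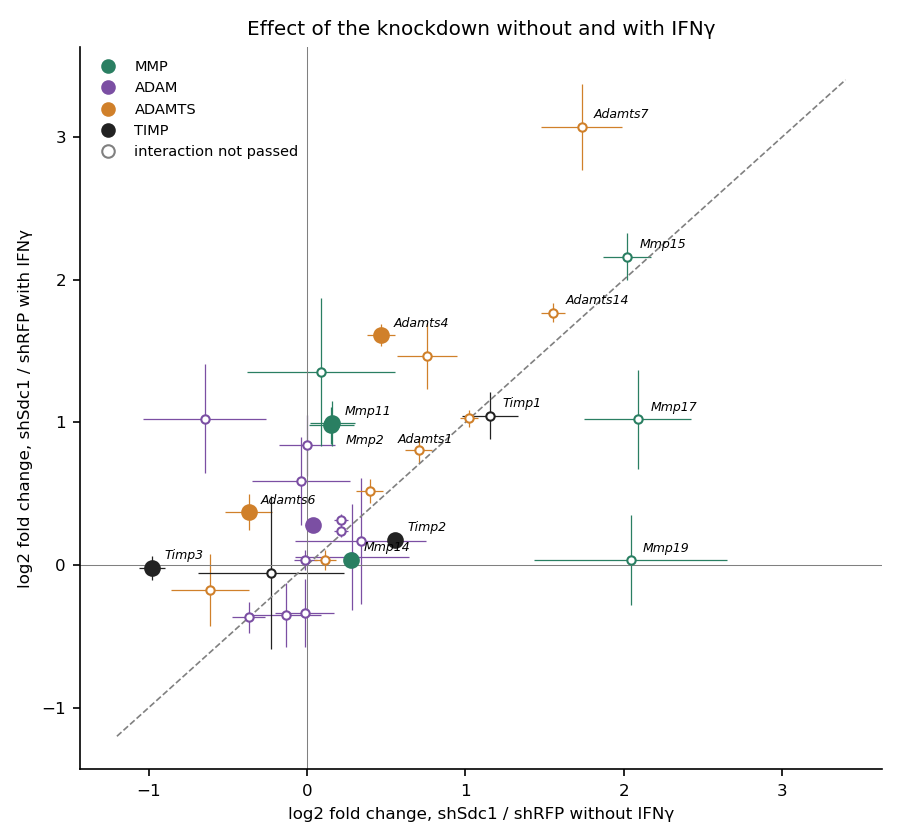
log2 fold change of the knockdown with IFNγ (y axis) against that without IFNγ (x axis) for the 33 measured members, with standard errors as bars, coloured by class; the dashed line marks equal effects and filled points are the 8 members whose effects differed. Adamts4, Timp3, Mmp11, Mmp2, Adamts6 and Adam17 lie above the line, and Mmp14 and Timp2 below it.

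Of the genes that these proteases act on, the 4 syndecans were all measured and went in different directions. Sdc2 had 45.2, 45.1 and 48.9 CPM in shSdc1 with IFNγ and 58.1, 57.3 and 56.5 CPM in shRFP with IFNγ. In the absence of IFNγ it had 43.3, 45.0 and 39.4 CPM in shSdc1 and 51.8, 47.9 and 47.7 CPM in shRFP. It fell with the knockdown, at a log2 fold change of -0.31 ± 0.059 (edgeR adjusted p = 0.000487) with IFNγ and -0.21 ± 0.060 (edgeR adjusted p = 0.0131) without it, and the second call ended without replicate 3 of shSdc1 or replicate 1 of shRFP (-0.17 to -0.15, adjusted p = 0.0764 to 0.0973). Sdc3 was higher in the shSdc1 libraries in each state, with 90.5, 88.1 and 79.5 CPM in shSdc1 with IFNγ and 54.6, 51.6 and 49.2 CPM in shRFP with IFNγ. Cells without IFNγ had 107, 109.8 and 108 CPM in shSdc1 and 60.3, 58.5 and 69.0 CPM in shRFP. Its effects were 0.73 ± 0.064 (edgeR adjusted p = 4.34e-08) with IFNγ and 0.80 ± 0.062 (edgeR adjusted p = 1.18e-08) without it. Sdc4, a syndecan of focal adhesions, was highest in shSdc1 with IFNγ, with 129, 128 and 110.4 CPM in shSdc1 with IFNγ and 83.9, 87.4 and 92.3 CPM in shRFP with IFNγ. The values without IFNγ were 85.0, 83.3 and 81.0 CPM in shSdc1 and 76.4, 84.0 and 76.5 CPM in shRFP. The knockdown effect was 0.48 ± 0.060 (edgeR adjusted p = 4.32e-06) with IFNγ and 0.074 ± 0.061 (edgeR adjusted p = 0.403) without it, and the difference was 0.40 ± 0.085 (edgeR adjusted p = 0.00617). On the length scale Sdc4 led the 4 in every group, at 48.0 CPM per kilobase in shSdc1 with IFNγ and 31.0 in shRFP, beside 6.78 and 19.8 for Sdc1. IFNγ in shRFP cells changed Sdc1 by 0.23 ± 0.074 (edgeR adjusted p = 0.0241), a call that ended with upper-quartile scaling and without replicate 3 of shRFP with IFNγ or replicate 2 of shRFP (0.12 to 0.22, adjusted p = 0.0722 to 0.147).

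A list of 37 genes that activate, carry or inhibit these enzymes or follow them in cleavage had 28 measured members. With the knockdown 9 rose and 8 fell without IFNγ, and 10 rose and 8 fell with it, against the background of all genes given above, with medians of 0.019 and -0.034. With IFNγ 12 rose and 5 fell in shSdc1 cells, and 10 rose and 5 fell in shRFP cells, and the knockdown effect differed between the states for 6, 3 in each direction. Among all genes 17.5% rose and 13.0% fell in shSdc1 cells, 17.2% and 14.4% in shRFP cells, and 9.73% differed between the states. The 6 with the largest changes were Plat, Tspan10, Hpse, Bace2, Tspan15 and Psen2. Plat, the tissue plasminogen activator, had 17.1, 17.5 and 13.6 CPM in shSdc1 with IFNγ and 5.62, 4.74 and 5.56 CPM in shRFP with IFNγ, a knockdown effect of 1.60 ± 0.13 (edgeR adjusted p = 1.37e-08). In unstimulated cells its levels were 6.68, 7.82 and 7.64 CPM in shSdc1 and 3.60, 3.74 and 3.59 CPM in shRFP, with an effect of 1.02 ± 0.14 (edgeR adjusted p = 2.16e-05). Hpse encodes heparanase, which trims heparan sulfate and is known to increase syndecan-1 shedding. It was lower in knockdown cells, with 13.0, 11.5 and 12.7 CPM in shSdc1 with IFNγ and 16.8, 17.8 and 19.6 CPM in shRFP with IFNγ, and without IFNγ 5.53, 6.51 and 4.58 CPM in shSdc1 and 13.5, 13.2 and 11.9 CPM in shRFP. Its effects were -0.54 ± 0.11 (edgeR adjusted p = 0.000696) with IFNγ and -1.22 ± 0.12 (edgeR adjusted p = 3.46e-07) without it, and they differed by 0.68 ± 0.16 (edgeR adjusted p = 0.0139). Of the tetraspanins that carry ADAM10 to the surface, Tspan15 rose by 1.15 ± 0.13 (edgeR adjusted p = 1.69e-06) with IFNγ and 0.95 ± 0.14 (edgeR adjusted p = 2.75e-05) without it. Tspan10, another of them and a gene of pigment cells, fell, at a log2 fold change of -1.44 ± 0.055 (edgeR adjusted p = 8.06e-13) with IFNγ and -1.17 ± 0.054 (edgeR adjusted p = 1.21e-11) without it. Bace2, an aspartyl sheddase that cuts the melanosome protein PMEL, fell, at a log2 fold change of -0.85 ± 0.043 (edgeR adjusted p = 2.18e-11) with IFNγ and -1.16 ± 0.043 (edgeR adjusted p = 7.69e-13) without it. Psen2, a catalytic subunit of gamma-secretase, fell, at a log2 fold change of -0.93 ± 0.047 (edgeR adjusted p = 2.7e-11) with IFNγ and -0.87 ± 0.047 (edgeR adjusted p = 8.03e-11) without it. Furin, the convertase that activates many of the precursors, rose by 0.19 ± 0.044 (edgeR adjusted p = 0.00267) with IFNγ and 0.34 ± 0.045 (edgeR adjusted p = 1.06e-05) without it. Furin was named after its values were seen.

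**Figure D5:**
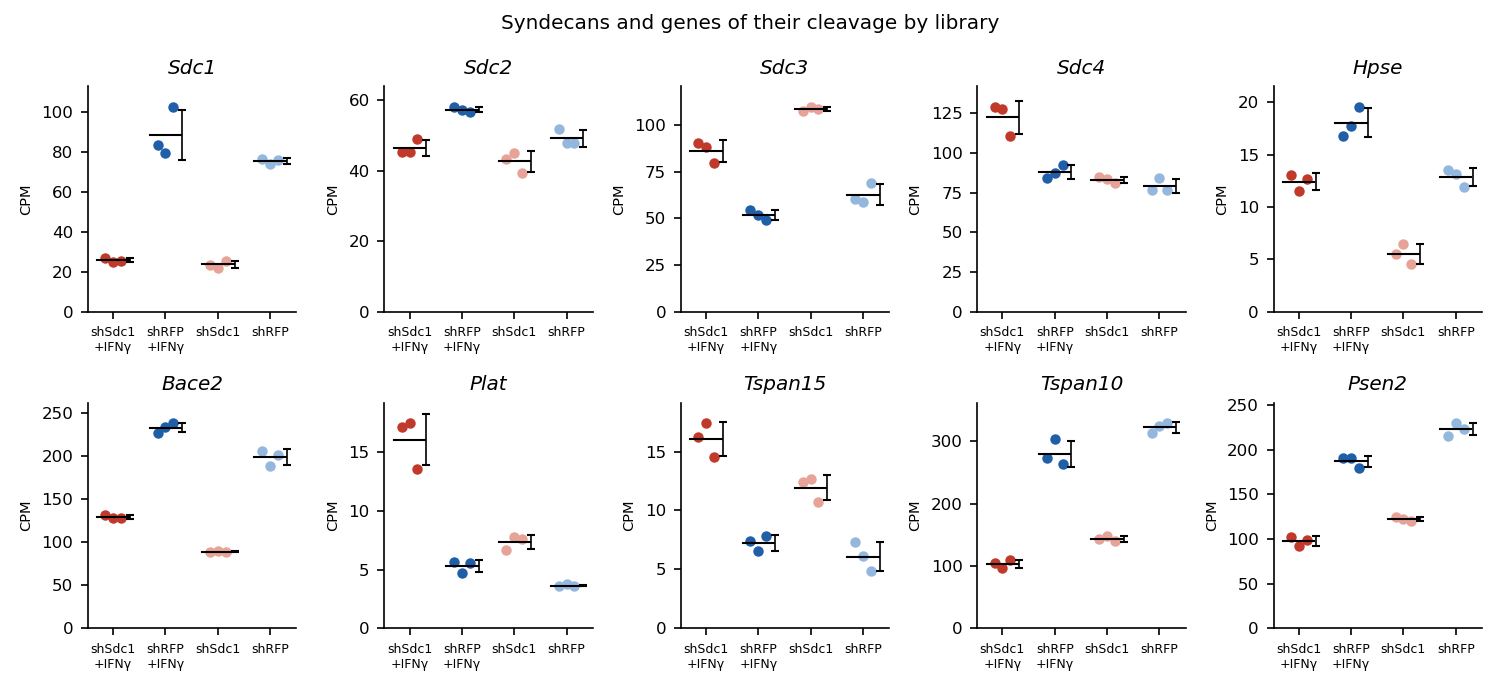
CPM of the 4 syndecans and of 6 genes of their cleavage in each library (points), with the group mean (line) and SD (bar, n = 3). Sdc1, Hpse, Bace2, Tspan10 and Psen2 are lower and Sdc3, Plat and Tspan15 higher in shSdc1 than in shRFP in each state.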

How the data were processed

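Gene-level raw counts of the 12 libraries were used as deposited; the authors made them from paired-end reads of mRNA libraries, per the labels' protocols. Per the submitters' processing notes the tools included HISAT2 2.0.5, with HTSeq and Trimmomatic, on GRCm39; the sources used here do not give the annotation or the strand option. A table of Ensembl identifiers and symbols named 52083 of the 56093 entries; exon lengths and overlaps came from GENCODE M21 (GRCm38); promoter windows and gene order came from RefSeq (GRCm38.p6), where 49 of the 79 members had a window.

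Genes were kept by filterByExpr (minimum count 10, minimum total 15) and scaled by TMM. The kept members with the fewest counts were Timp4 (143) and Mmp19 (145), and the members left out with the most were Adam4 (60) and Adam32 (59). All 12 libraries entered 1 quasi-likelihood fit (a coefficient for each group) in edgeR 4.0.16 under R 4.3.3 (8 residual degrees of freedom, common biological coefficient of variation 0.0633), and the procedure was tested on simulated data. The standard error is the log2 fold change over the square root of F. The interaction is the knockdown effect with IFNγ minus that without. Adjusted p-values are two-sided with no fold minimum. Values in every library are given for members that reached 1 CPM on average in some group and passed with an absolute log2 fold change of at least 0.5, and for members described in syndecan shedding. The members and lists were chosen with earlier results of these data known. Alternatives were DESeq2 size factors, scaling by upper quartile, a Wald test in DESeq2 1.42.0, no filter, 1 CPM in 3 libraries, fits of the compared groups, the replicate number as a block, and leaving out each library. Counts of replicate pairs differed by more than sampling noise (chi-square per degree of freedom 2.38 to 63.5), so none was taken as a duplicate. A few genes and one motif examined beside the members are not reported here.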

Additional observations from a re-analysis of the deposited data

Results flagged for a closer look

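The effect of the knockdown differed between cells with and without IFNγ, by the interaction term of the edgeR fit, for 8 of the 33 measured members, and each is given here as the effect with IFNγ minus the effect without it on the log2 scale. It was 1.14 for Adamts4, 0.96 for Timp3, 0.83 for Mmp11, 0.82 for Mmp2, 0.74 for Adamts6 and 0.25 for Adam17, all upward. It was -0.24 for Mmp14 and -0.38 for Timp2, both downward. Of 18 alternative fits each, the call was lost in 8 for Adam17, 5 for Mmp11, 4 for Adamts6 and 3 for Mmp14, and in 0 for Adamts4, Timp3, Mmp2 and Timp2. For Adamts4 and Timp2 the knockdown effect was positive in both states and differed in size. For Timp3 the knockdown lowered the level without IFNγ, and with IFNγ the effect was -0.018 ± 0.084.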

How the results depend on the processing

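The number of members called stayed within 1.5 times in the knockdown comparisons and the IFNγ comparisons under each alternative run. Leaving out 1 library at a time gave 16 to 19 members for the knockdown without IFNγ (17 with all libraries), 17 to 20 with IFNγ (21), 14 to 16 for IFNγ in shSdc1 (17) and 12 to 15 for IFNγ in shRFP (14). The interaction ranged from 5 to 9 members (8), with 5 without shSdc1 with IFNγ replicate 2, shSdc1 replicate 1 or shRFP replicate 1. Without shSdc1 replicate 3 the knockdown without IFNγ gave 17 members and the interaction 7. Of 2582 alternative values for single genes, 85 lost and 32 gained a call and 0 called values changed sign; 82 values with no call in either fit did. Over these settings the median of all genes moved by less than 0.1 on the log2 scale. The replicate numbers did not pair the samples, with correlations of -0.068 to 0.033 over 18 same-numbered pairs. The replicate block gave 17, 19, 15, 14 and 8 members for the knockdown without and with IFNγ, IFNγ in shSdc1 and in shRFP, and the interaction. The filter of 1 CPM in 3 libraries left Timp4 untested, so it has no value there. Fits of the compared groups alone also gave none for Timp4 in the knockdown with IFNγ and in IFNγ in shRFP. They gave none for Mmp19 in the knockdown without IFNγ. Low counts limit Mmp9, Mmp17, Mmp19, Mmp23, Adam33 and Timp4, and in shRFP with IFNγ also Adamts5 (42 counts) and Adamts7 (34 counts).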
